A study of Mus musculus with 6 samples.

Results

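The MYC and MAX network is represented here by 10 genes, Myc, Mycn, Max, Mxd1, Mxd3, Mxd4, Mxi1, Mnt, Mlx and Mga, taken by symbol from a table of 41255 genes. All 10 had a row in that table, and all 10 passed the filter on low values (a mean normalized read count of at least 10 over all libraries), which left 11550 genes for testing. mRNA sequencing was carried out on Ba/F3, an interleukin-3-dependent mouse lymphoid line, to compare cells with WT RPL10 to cells with the R98S form known from T-ALL, an acute leukemia of T cell precursors. The WT group held clones 28, 29 and 36, and the R98S group held clones 11, 13 and 35, with 1 library per clone. Every clone of both groups expressed a human RPL10 cDNA delivered by retrovirus, carried a short hairpin RNA against mouse Rpl10, and was treated with 100 µg/ml cycloheximide for 5 min before harvest. Each clone was a culture grown out from 1 cell, so that differences between genotypes were measured against the spread between such clones. RPL10 itself is a protein of the large ribosomal subunit.

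MYC and MYCN are transcription factors of the basic helix-loop-helix leucine zipper class that bind E-box DNA only as dimers with MAX, and in lymphoid cells they drive growth through genes of ribosome biogenesis, nucleotide synthesis and the cell cycle. The MXD proteins, MXI1 and MNT compete for MAX, occupy the same E-boxes and recruit SIN3 and histone deacetylases, which represses transcription there. MLX is a MAX-like partner for MondoA, ChREBP and some of the repressors, and MGA joins MAX in a polycomb-related repressor complex. MYC is a major oncogene of T-ALL, where NOTCH1 activates it, and interleukin-3 induces it in Ba/F3 cells.

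The DNA element through which these dimers act, the E-box CACGTG, was looked for in RefSeq promoter windows of the genome build GRCm38.p6, each spanning 250 bases before to 50 bases after a transcript start. Entries were found for 9 of the 10 factors, the exception being Myc. Of these 9 genes, 4 (44.4%) had the motif in a window, compared to 2187 of 27025 genes (8.09%) and 2349 of 32851 windows (7.15%) overall. The motif reads the same on both strands. The windows are shown because they place the motif of the network next to its own members, with CACGTG in capitals, in 30 bases read 5′ to 3′ on the strand of the gene.
Max: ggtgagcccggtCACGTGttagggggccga
Mxd4: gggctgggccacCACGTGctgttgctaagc
Mnt: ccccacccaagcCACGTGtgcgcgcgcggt
Mlx: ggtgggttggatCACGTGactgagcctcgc
The Max site lies at chr12:76962234-76962263 on the minus strand, and its motif begins at position -3 from the RefSeq start on which the window is set. GENCODE M21 places the outermost start of Max further downstream, at 76962201, so that the motif spans the RefSeq start and lies upstream of the GENCODE start. Those of Mxd4 (chr5:34187912-34187941, minus strand), Mnt (chr11:74830789-74830818, plus strand) and Mlx (chr11:101087238-101087267, plus strand) begin at -219, -123 and -40 from their RefSeq starts. A match describes these letters and not the binding of a factor, and the windows of Mycn, Mxd1, Mxd3, Mxi1 and Mga had no match.

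The libraries held between 21786776 and 24204991 reads assigned to genes, and a count of 3 reads, the floor used here, equalled a normalized read count between 2.78 and 3.22. Rpl10, the target of the hairpin in every clone, had a log2 fold change of -0.07 (adjusted p = 0.871 in limma). It had 1845 to 3227 reads per library. Whether reads of the human RPL10 cDNA were counted among them was not tested, so these values do not measure the knockdown. As for cell identity, all 4 genes listed for the interleukin-3 response were above the floor in every library. They comprise receptor subunits and Ptprc, and their levels do not measure a response. Their sums, mostly Csf2rb and Csf2rb2, were 98118 to 118045 in WT and 134077 to 158695 in R98S clones. Within this list the receptor subunits Csf2rb (log2 fold change 0.53) and Csf2rb2 (0.62) were called higher, Ptprc was called lower (-1.33) and Il3ra was not called (-0.18). Of 9 early B-lineage markers, Cd79a and Cd79b were above the floor throughout and Pax5, Vpreb1, Igll1, Rag1 and Il7r had at most 10 reads in any library, with sums of 1289 to 1404 in WT and 1638 to 1959 in R98S clones. Mast cell and basophil markers summed to 25256 to 29785 in WT and 13934 to 17555 in R98S clones, nearly all of it Gata2, while Kit and Fcer1a had at most 10 reads in any library, and the part of these shifts in the results was not tested. Sums in WT and in R98S clones were 10.75 to 65.05 and 6.12 to 15.95 for T cell, 164.9 to 267.6 and 88.19 to 251.1 for macrophage, 1943 to 3517 and 1978 to 3599 for erythroid, and 2.05 to 17.19 and 8.33 to 15.31 for fibroblast markers, and Cd3e, Cd4, Cd8a, Csf1r, Hbb-bs, Col1a2 and Dcn had at most 10 reads in any library. Among these, the weakly expressed macrophage gene Lyz2 (23.95 ± 19.48 normalized counts for WT) and hemoglobin gene Hba-a1 (35.78 ± 30.68) were called lower in R98S clones.

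R98S cells had more Max mRNA and less Mxd1 and Mxd3 mRNA than WT cells, whereas the mRNAs of Myc, Mycn and the other network factors did not pass the test. Of the 10 factors, 3 (Max, Mxd1 and Mxd3) passed limma at an adjusted p under 0.1, compared to 23.9% of all tested genes. In terms of direction, 1 of 10 was higher (10.7% of all tested genes) and 2 of 10 were lower (13.1% of all tested genes). For 2 of the 10, Max and Mxd3, the values of WT and R98S clones did not overlap, compared to 37.3% of all tested genes. The median log2 fold change of the 10 factors was -0.16, and that of all tested genes was -0.01. These shares are near or below the background, so the factors are described below as single genes. A normalized read count is the number of reads over the size factor of its library, and fold changes refer to log2(normalized read count + 1), as fitted by limma, a linear model across all genes. In bulk cultures, fewer cells expressing a gene and less mRNA per cell cannot be told apart.

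**Figure D1:**
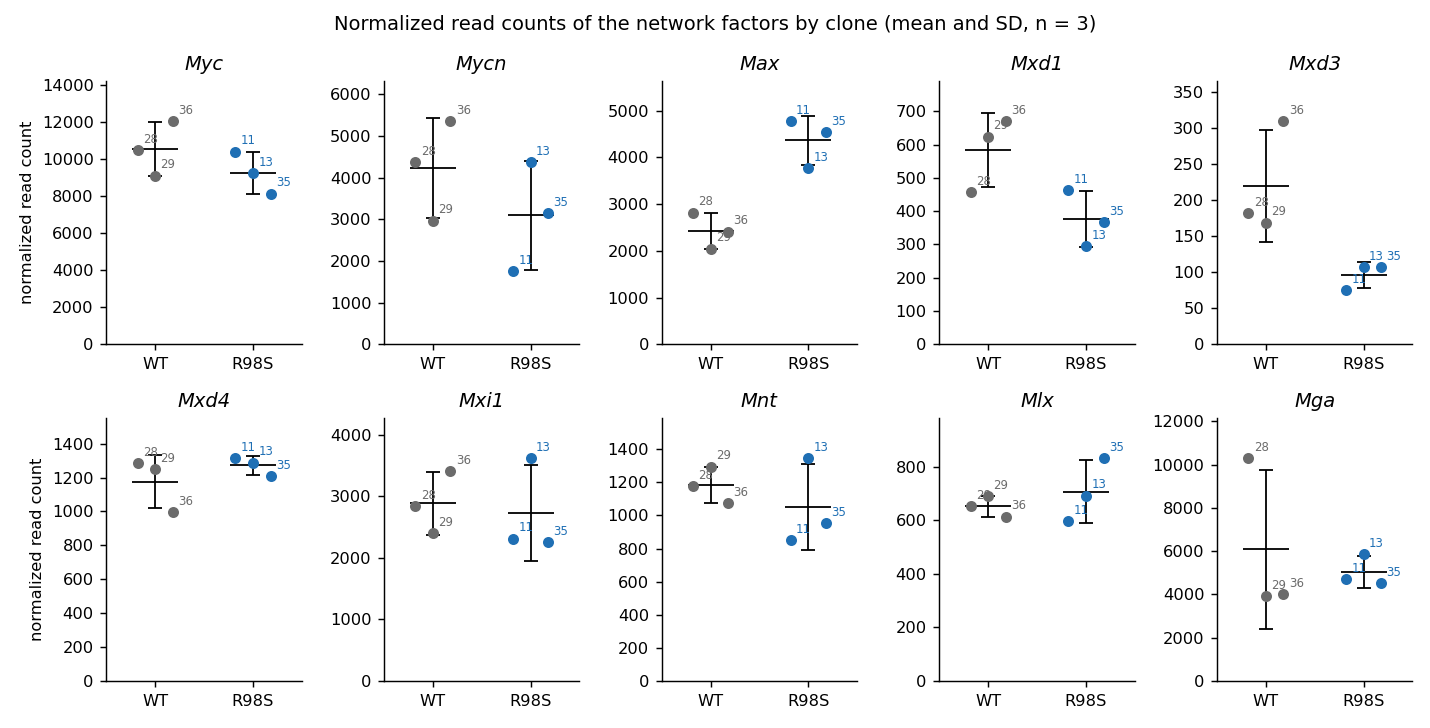
Normalized read counts (vertical axes from 0) of the 10 network factors in the WT clones (grey, 28, 29 and 36) and the R98S clones (blue, 11, 13 and 35), with the mean (horizontal line) and SD (bars) of each group, n = 3. Max was at 3770 or more in each R98S clone and at 2818 or less in each WT clone, Mxd3 was lower in each R98S clone than in any WT clone, and WT clone 28 had 10310 normalized counts of Mga.

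Myc (chromosome 15, 61985391 to 61990374, plus strand, GRCm38), the central activator of the network, was abundant in every clone. Its normalized read counts were 10487, 9116 and 12066 in WT clones 28, 29 and 36 against 10415, 9263 and 8153 in R98S clones 11, 13 and 35. The groups overlapped, with means of 10556 ± 1476 for WT and 9277 ± 1131 for R98S cells (SD, n = 3). The log2 fold change of R98S over WT was -0.18 (SE 0.14, 95% interval -0.51 to 0.14, adjusted p = 0.405 in limma). The 30 nearest tested genes of Myc had a median of -0.21 on the log2 scale, and with that regional shift removed from each library the value of Myc was 0.02 (adjusted p = 0.928 in limma, with a range of 0.294 to 0.928 over the alternatives).

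Mycn (chromosome 12, 12936093 to 12941914, minus strand), a paralog of Myc with the same partner and E-box, varied much more between clones of the same genotype. WT clones 28, 29 and 36 had 4382, 2969 and 5358 normalized counts of Mycn, and R98S clones 11, 13 and 35 had 1754, 4381 and 3142. R98S clone 11 lay below all other clones, and R98S clone 13 was level with WT clone 28. The means were 4236 ± 1201 for WT and 3092 ± 1314 for R98S cells (SD, n = 3), giving a log2 fold change of -0.51 (SE 0.33, adjusted p = 0.331 in limma). The 95% interval of the Mycn difference, from -1.27 to 0.25, was wide, and without R98S clone 11 the value shrank to -0.15 (adjusted p = 0.766 in limma, within a range of 0.123 to 0.766 over the alternatives). No alternative gave a call for Myc or Mycn.

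Max (chromosome 12, 76937269 to 76962201, minus strand), the shared partner of the activators and the MXD repressors, rose in R98S cells. The normalized read counts of Max were 2818, 2048 and 2410 in WT clones 28, 29 and 36 against 4776, 3770 and 4541 in R98S clones 11, 13 and 35. The lowest R98S clone, 13, was above the highest WT clone, 28. The mean went from 2425 ± 385.2 to 4362 ± 525.9 (SD, n = 3), a ratio of 1.80. The log2 fold change was 0.85 (SE 0.15, 95% interval 0.51 to 1.19, adjusted p = 0.0106 in limma), and it was called in each of 17 alternatives, with values between 0.74 and 0.97. The genes around Max did not move with it to a like extent, with a median log2 fold change of 0.08 over the 30 nearest tested genes.

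Mxd3 (chromosome 13, 55325168 to 55329823, minus strand), a MAX-binding repressor that is known to be expressed during S phase, fell in R98S cells. WT clones 28, 29 and 36 had 181.3, 168.7 and 309.2 normalized counts of Mxd3, and R98S clones 11, 13 and 35 had 75.06, 107.2 and 106.4. All R98S clones were below all WT clones, and WT clone 36 stood above the other WT clones. The mean fell from 219.7 ± 77.76 to 96.21 ± 18.32 (SD, n = 3), which made Mxd3 2.28-fold lower in R98S cells. The log2 fold change was -1.15 (SE 0.28, 95% interval -1.79 to -0.51, adjusted p = 0.0310 in limma). It was called in 16 of 17 alternatives and missed the threshold without R98S clone 11 (-0.98, adjusted p = 0.1047 in limma, within a range of 0.00334 to 0.1047). Mxd3 shares 105 exon bases with Prelid1 on the opposite strand, and Prelid1, which is named for this overlap after its values were seen, went from 9628 ± 1065 to 6723 ± 470.6 normalized counts (log2 fold change -0.51, adjusted p = 0.0255 in limma). Whether the strand of the reads was used in counting is not given in the sources used here, so reads of the shared bases cannot be told apart, and their part in the Mxd3 result was not tested.

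Mxd1 (chromosome 6, 86647042 to 86669161, minus strand), the repressor that is induced as hematopoietic cells stop dividing and differentiate, also fell, by a smaller margin. The normalized read counts of Mxd1 were 457.7, 624.4 and 670.5 in WT clones 28, 29 and 36 against 463.5, 296.0 and 367.3 in R98S clones 11, 13 and 35. The groups touched, since R98S clone 11 was slightly above WT clone 28. The mean fell from 584.2 ± 111.9 to 375.6 ± 84.06 (SD, n = 3), giving a log2 fold change of -0.64 (SE 0.21, 95% interval -1.13 to -0.15, adjusted p = 0.0797 in limma). Mxd1 was called in 11 of 17 alternatives, with an adjusted p between 0.0406 and 0.208. The call was lost without WT clone 29 (adjusted p = 0.208), WT clone 36 (0.176), R98S clone 13 (0.153) or R98S clone 35 (0.164).

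The remaining repressors showed no called difference, and their values overlapped between the groups. Mxi1 (chromosome 19, 53310518 to 53375810, plus strand), a relative of Mxd1, was at 2839, 2401 and 3416 normalized counts in WT clones 28, 29 and 36 against 2312, 3626 and 2256 in R98S clones 11, 13 and 35. R98S clone 13 had the highest Mxi1 level of all clones while the other R98S clones had the lowest, and the log2 fold change was -0.10 (95% interval -0.57 to 0.37, adjusted p = 0.773 in limma). Mxd4 (chromosome 5, 34173883 to 34187720, minus strand), which is associated with resting and differentiated cells, had 1284, 1249 and 994.8 normalized counts in the WT clones in the same order, and 1316, 1288 and 1210 in the R98S clones. For Mxd4 the R98S clones lay close together and WT clone 36 was the lowest, with a log2 fold change of 0.12 (95% interval -0.18 to 0.42, adjusted p = 0.559 in limma). Mnt (chromosome 11, 74830920 to 74845725, plus strand), the most widely expressed antagonist of MYC, had 1179, 1295 and 1075 normalized counts in the WT clones and 851.9, 1348 and 954.8 in the R98S clones. Again R98S clone 13 was the highest of all, and R98S clones 11 and 35 were below every WT clone. The log2 fold change of Mnt was -0.19 (95% interval -0.61 to 0.22, adjusted p = 0.494 in limma), and without R98S clone 13 it was -0.39 and passed the threshold (adjusted p = 0.0823 in limma, within a range of 0.0823 to 0.874 over the alternatives). Mxi1 and Mxd4 share 194 and 514 exon bases with Gm10197 and Gm42846 on the opposite strand, genes without a known role that are named for this overlap. Gm10197 had 0 reads in every library, and Gm42846 was not among the genes listed.

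Mlx (chromosome 11, 101087277 to 101092207, plus strand) was expressed evenly, with 651.3, 689.9 and 613.5 normalized counts in WT clones 28, 29 and 36 against 595.8, 692.0 and 832.6 in R98S clones 11, 13 and 35. R98S clone 35 was the highest and the other clones overlapped, with a log2 fold change of 0.11 (95% interval -0.24 to 0.45, adjusted p = 0.670 in limma). The 30 nearest tested genes of Mlx had a median of 0.19 on the log2 scale, and Psmc3ip, with which Mlx shares 385 exon bases on the opposite strand, had one of 0.34 (adjusted p = 0.292 in limma).

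Mga (chromosome 2, 119897228 to 119969581, plus strand), the large MAX partner with a second DNA-binding domain of the T-box type, was set apart by a single clone. WT clone 28 had 10310 normalized counts of Mga, whereas WT clones 29 and 36 had 3936 and 4001, and R98S clones 11, 13 and 35 had 4699, 5874 and 4514. Without WT clone 28, each R98S clone was above each WT clone, but the difference of 0.33 was not called (adjusted p = 0.244 in limma, within a range of 0.244 to 0.965). With all clones the means were 6082 ± 3661 for WT and 5029 ± 737.6 for R98S cells (SD, n = 3), and the log2 fold change was -0.13 (95% interval -0.91 to 0.66, adjusted p = 0.829 in limma). The surplus of Mga in WT clone 28 was not shared by the genes around it, as the 30 nearest tested genes had a median deviation of -0.06 (log2) in that library.

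**Figure D2:**
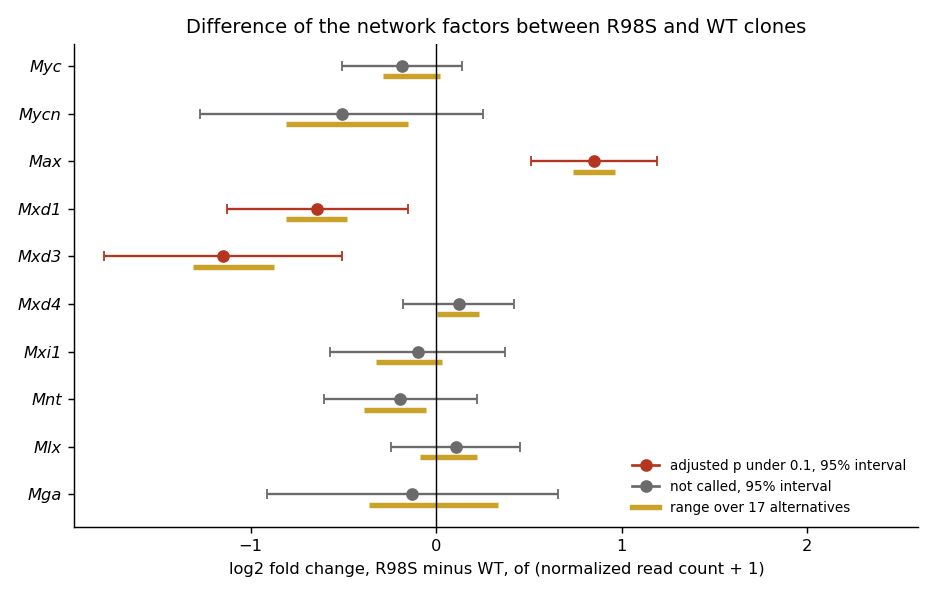
Log2 fold change of R98S minus WT (horizontal axis) on the log2(normalized read count + 1) scale for each network factor, with its 95% interval, in red where the adjusted p was under 0.1, and the range over 17 alternatives as a yellow bar. The intervals of Max (0.51 to 1.19), Mxd1 (-1.13 to -0.15) and Mxd3 (-1.79 to -0.51) lie off 0, and those of the other 7 factors include it.

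The weight of single clones differed among the factors. With each clone left out in turn, the log2 fold change of Max stayed between 0.74 and 0.97 and that of Mxd3 between -1.31 and -0.87. That of Mxd1 ranged from -0.81 to -0.48, and that of Mycn from -0.81 to -0.15. The sign of Mxi1 (-0.32 to 0.03), Mlx (-0.02 to 0.22) and Mga (-0.36 to 0.33) depended on which clone was left out. For Mxd4 the range was 0.00 to 0.19 and for Myc -0.29 to -0.08, with no call in any of these fits.

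**Figure D3:**
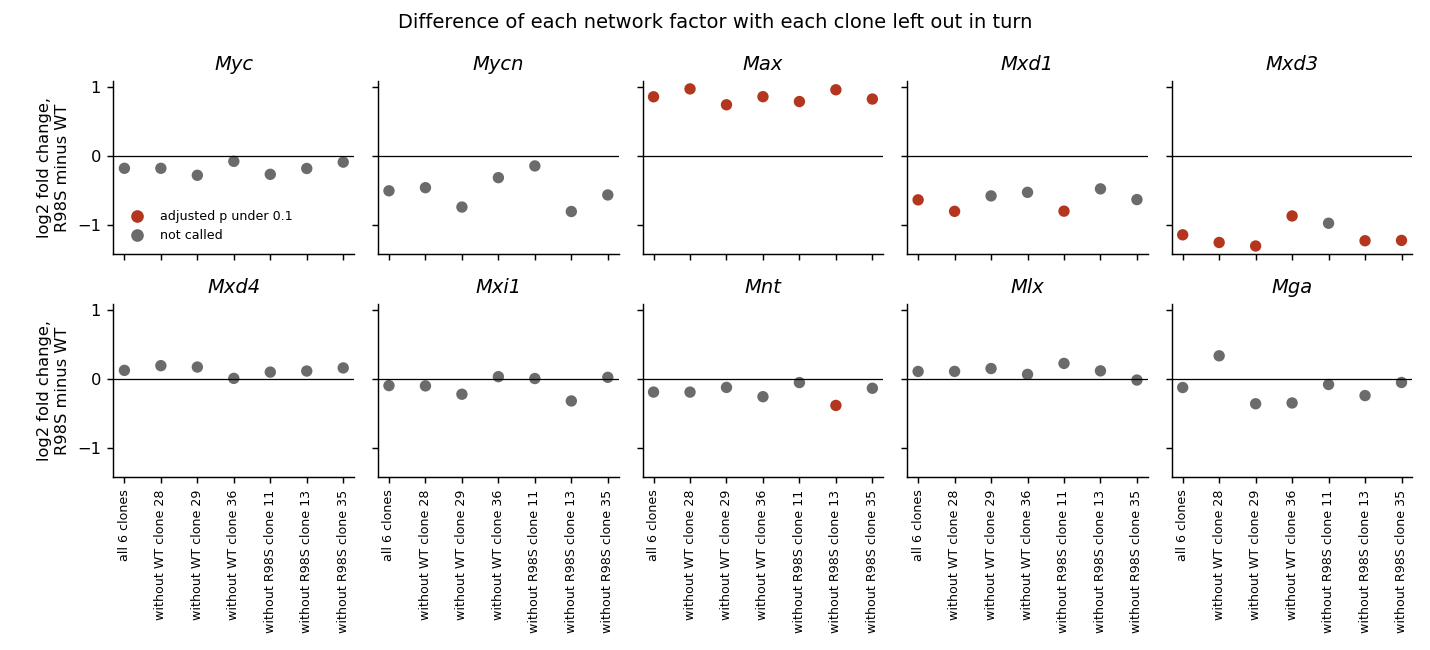
Log2 fold change of R98S minus WT (vertical axis) of each network factor with all 6 clones and with each clone left out in turn, in red where the adjusted p was under 0.1. Max is red in all fits at 0.74 to 0.97, Mxd3 loses its call without R98S clone 11, Mxd1 keeps it in 2 of the 6 fits, and Mga moves from -0.13 to 0.33 without WT clone 28.

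To set the factors beside each other, normalized read counts were divided by the length of the longest protein-coding transcript of each gene (GENCODE M21). On this scale Myc was the most abundant factor in all 6 libraries, with a level per kilobase of 4515 ± 631.4 for WT and 3968 ± 483.7 for R98S cells (SD, n = 3). Mycn came next in every WT clone (1110 to 2004 per kilobase) followed by Max (1055 to 1451), with overlapping ranges. In every R98S clone this order was turned round, with Max at 1941 to 2459 and Mycn at 656.1 to 1638 per kilobase. When the union of all annotated exons was used as the length, Mycn remained above Max in R98S clone 13 (1329 and 1048 per kilobase), the exon union of Max (3598 bases) being longer than its longest transcript (1942 bases).

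Below these came Mxi1, with 476.7 to 678.2 per kilobase in WT and 448.1 to 720.1 in R98S clones. Levels of Mga, Mlx, Mxd4 and Mnt followed, and neighbours in this order overlapped in WT clones. In R98S clones Mga (324.0 to 421.6) lay below Mxi1 and Mnt (185.6 to 293.7) below Mxd4 (312.5 to 340.0), while Mga, Mlx and Mxd4 overlapped. The lowest levels per kilobase were those of Mxd3 (127.1 to 233.0 in WT and 56.56 to 80.76 in R98S clones) and Mxd1 (98.1 to 143.7 in WT and 63.43 to 99.33 in R98S clones). These 2 overlapped each other in both genotypes. On this length scale the repressors that fell in R98S cells were the least abundant of the network, whereas with the exon union Mxd3 (130.5) was above Mxd4 (117.3) in WT clone 36. Per longest transcript, Mxd1 and Mxd3 together made up 16.92% to 24.37% of the summed level of Mxd1, Mxd3, Mxd4, Mxi1 and Mnt in WT clones and 9.67% to 14.09% in R98S clones.

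**Figure D4:**
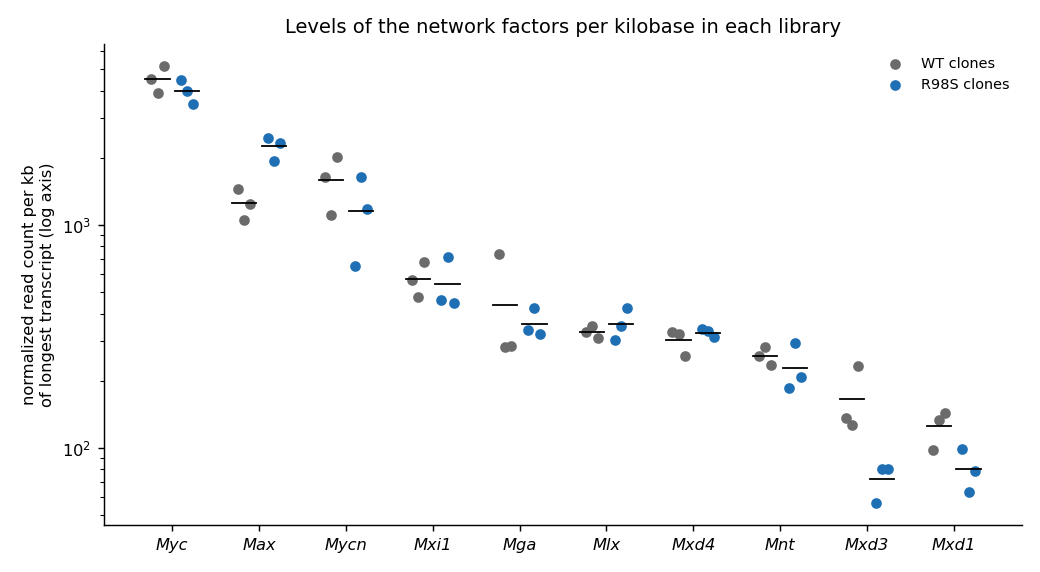
Normalized read count per kilobase of the longest protein-coding transcript (vertical log axis) of each network factor in WT (grey) and R98S (blue) clones, with a line at the group mean, ordered by the mean over all libraries. Myc is highest in all libraries, Max lies at 1055 to 1451 in WT and 1941 to 2459 in R98S clones, and Mxd1 and Mxd3 are at the low end.

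The level of Max relative to Myc was higher in every R98S clone, while the ratio of repressors to activators covered nearly the same range in both genotypes. The Max level per kilobase was 32.35%, 27.05% and 24.04% of that of Myc in WT clones 28, 29 and 36 compared to 55.2%, 49.0% and 67.05% in R98S clones 11, 13 and 35. The R98S clones were all above the WT clones, and the same held with the exon union (15.08% to 20.29% in WT and 30.73% to 42.05% in R98S clones). The summed level of Myc and Mycn was 5010 to 7165 per kilobase in WT and 4662 to 5600 in R98S clones, and that of the 5 repressors was 1342 to 1546 in WT and 1127 to 1491 in R98S clones. Their ratio, repressors over activators, was 0.216 to 0.268 in WT and 0.223 to 0.266 in R98S clones. These ratios describe mRNA and were not tested.

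By limma, genes of other proteins working with the factors were called at shares near or below the background of 23.9%. Calls made up 21.4% of the corepressors and MYC cofactors and 7.69% of the genes governing MYC protein stability. Values did not overlap between the groups for 42.9% and 30.8% of these lists, compared to 37.3% of all tested genes. Among the other members of the same protein class, Mlxip, which encodes MondoA, the partner of MLX, had 2403 ± 354.9 normalized counts in WT and 2145 ± 64.81 in R98S cells (log2 fold change -0.15, adjusted p = 0.451 in limma). Mycl and Mlxipl, which encode L-MYC and ChREBP, had at most 4 reads in any library and were not tested. Of 14 corepressors and MYC cofactors, 1 was called higher (7.14%, against 10.7% of all tested genes) and 2 lower (14.29%, against 13.1%), with a median log2 fold change of -0.05. The split depended on the scaling, with 3 higher and 2 lower at the same upper quartile and 3 higher and 0 lower at the upper quartile of detected genes, a scaling chosen after seeing the data. Sin3b, a SIN3 scaffold that MXD proteins recruit, fell from 2348 ± 158.3 to 1763 ± 283.2 (adjusted p = 0.0697 in limma). The genes around Sin3b had a median of -0.26, and with that shift removed its log2 fold change went from -0.42 to -0.16 and the call was lost (adjusted p = 0.233 in limma, the highest over the alternatives). Ruvbl1, an ATPase of MYC-bound chromatin complexes, rose from 2039 ± 62.71 to 2508 ± 131.3 (adjusted p = 0.0748 in limma). The calls of both were lost without WT clone 28, WT clone 29 or R98S clone 11. In addition, Ruvbl1 and Sin3b were not called without R98S clone 35, and Ruvbl1 without WT clone 36. Of 13 tested genes that govern the stability of the MYC protein, 0 were called higher by limma, compared to 10.7% of all tested genes. At an unadjusted p under 0.05 in limma, 2 were higher and 4 lower, while edgeR called 0 higher and DESeq2 2. The 1 gene called lower (7.69%, against 13.1% of all tested genes) was Usp28, a deubiquitinase that protects MYC. Usp28 fell from 1290 ± 71.23 to 997.6 ± 44.54 (adjusted p = 0.0536 in limma). Its call was lost without any of the WT clones or without R98S clone 35 (adjusted p up to 0.166). For this list DESeq2 called 2 genes higher and 3 lower, and with the upper quartile of detected genes limma called 2 higher and 0 lower. The median of this list was -0.0038.

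Many of the genes that MYC is known to activate, many of them in ribosome biogenesis, were higher in R98S cells. Of 65 such genes, all tested, 31 (47.7%) were called higher and 2 (3.08%) lower in limma, compared to 10.7% and 13.1% of all tested genes. The median log2 fold change of the list was 0.36, against -0.01 for all tested genes, and for 45 of the 65 genes (69.2%) the groups did not overlap, compared to 37.3% of all tested genes. The count of higher genes was 19 without WT clone 28, 20 without WT clone 29 and 20 without R98S clone 35, and that of lower genes was 0, 1 and 3 in these fits. As shares, 29.2%, 30.8% and 30.8% of the list were higher in these fits, against 5.1%, 5.6% and 8.1% of all tested genes. With libraries scaled to the upper quartile of the detected genes, 40 genes of the list were higher and 1 lower, and over all genes 1784 were higher and 1091 lower in place of 1241 and 1514.

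The called genes with the highest fold changes in this list were Dctpp1, Ndufaf4 and Ncl. Dctpp1, a pyrophosphatase that cleans the nucleotide pool, rose from 921.8 ± 29.11 to 1994 ± 186.0 normalized counts (log2 fold change 1.11, adjusted p = 0.00109 in limma). Ndufaf4, an assembly factor of respiratory complex I, rose from 967.5 ± 30.29 to 2116 ± 650.4 (1.07, adjusted p = 0.0189 in limma), and R98S clone 13, with 1375, was closest to the WT clones. Ncl, the nucleolar protein nucleolin, rose from 40094 ± 1291 to 75388 ± 15252 (0.89, adjusted p = 0.0119 in limma). The 2 genes called lower were Farsa and Hk2. Farsa, a subunit of phenylalanyl-tRNA synthetase, was at -0.45 (adjusted p = 0.0249 in limma). Hk2, a hexokinase that phosphorylates glucose, was at -0.41 (adjusted p = 0.0457 in limma). Without WT clone 28 neither was called, and Hk2 was not called without WT clone 29, with the regional shift removed or with the upper quartile of detected genes either. The genes around Farsa had a median of -0.37, and with that shift removed Farsa was at -0.08 (adjusted p = 0.645 in limma, within a range of 0.00156 to 0.645).

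E-boxes were also present beside these genes. Of 58 MYC-activated genes with a RefSeq entry, 17 (29.3%) had CACGTG in a window. The motif was found in 9 of 28 genes called higher (32.1%), in 8 of 28 genes not called (28.6%) and in 0 of 2 called lower, so that its presence hardly differed between called and other genes of the list. The sites of Nop2, Ipo4 and Nme1 are shown as examples among the genes called higher, chosen after their values were seen, to be compared with the site of Max above.
Nop2: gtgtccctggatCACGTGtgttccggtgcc
Ipo4: tgtcggagtctcCACGTGccgatcctcccc
Nme1: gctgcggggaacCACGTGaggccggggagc
They lie at chr6:125131811-125131840 (plus strand), chr14:55635653-55635682 (minus strand) and chr11:93968273-93968302 (minus strand), with the motif beginning at -60, 14 and -18 from the RefSeq start. Nme1 had a further motif, not shown, at chr11:93968037-93968066, which begins at -29 from another RefSeq start. Nop2, a methyltransferase of ribosomal RNA, had a log2 fold change of 0.72, Ipo4, an importin, 0.68, and Nme1, a nucleoside diphosphate kinase, 0.77.

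Genes that MYC is known to repress were lower in R98S cells where they were called. Of 10 such genes, 6 were tested, with a median log2 fold change of -0.50 against -0.01 for all tested genes. By limma 3 of the 6 were called lower, compared to 13.1% of all tested genes, and 0 were called higher, compared to 10.7% (0 also at an unadjusted p under 0.05, by edgeR and by DESeq2). The signs were mixed, with 4 of the 6 negative and 2 positive, up to 0.40. Ndrg1, a growth arrest and stress response gene, was at 5265, 9017 and 6228 normalized counts in WT clones 28, 29 and 36 against 996.4, 425.6 and 433.0 in R98S clones 11, 13 and 35, so that it was 11.06-fold lower in R98S cells (log2 fold change -3.55, adjusted p = 0.000774 in limma). Gadd45a, a damage response gene (-0.78, adjusted p = 0.0857 in limma), and Cdkn1b, which encodes the cell cycle inhibitor p27 (-0.47, adjusted p = 0.0871 in limma), fell less. Without WT clone 28, WT clone 29 or R98S clone 35 only Ndrg1 was called, and the same held with the regional shift removed. Gadd45a was also lost without R98S clone 11 and Cdkn1b without R98S clone 13.

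Both tested targets of the MLX branch, Txnip and Klf10, out of 4 listed, fell in R98S cells, compared to 13.1% of all tested genes that were called lower. Txnip, an inhibitor of glucose uptake that MondoA and MLX induce, was at 15552, 15674 and 29641 normalized counts in WT clones 28, 29 and 36 against 5783, 10382 and 6074 in R98S clones 11, 13 and 35. All R98S clones were below the WT clones, with a log2 fold change of -1.44 (SE 0.30, adjusted p = 0.0196 in limma). Klf10, a further target, fell from 952.2 ± 282.9 to 316.8 ± 37.91 normalized counts (log2 fold change -1.55, SE 0.22, adjusted p = 0.00504 in limma). Both were called in each of 17 alternatives, while Arrdc4 and Pklr, with at most 3 reads in any library, were not tested. The mRNAs of Mlx and Mlxip, which encode the activators of these genes, were not called.

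**Figure D5:**
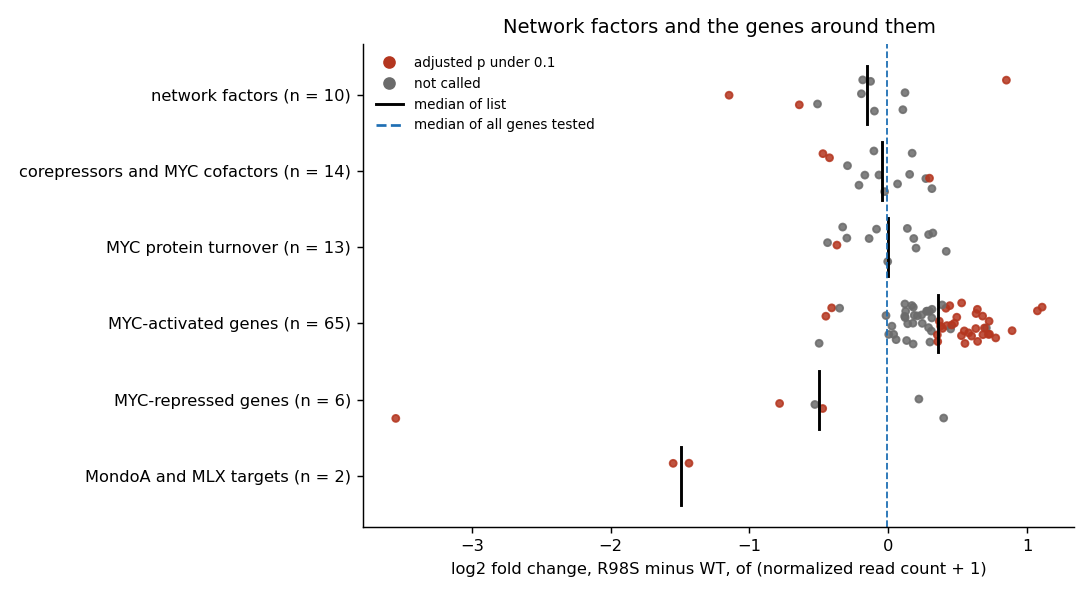
Log2 fold change of R98S minus WT (horizontal axis) of each tested gene of the network and of the lists around it, in red where the adjusted p was under 0.1, with the median of each list (black line) and of all tested genes (dashed line, -0.01). The MYC-activated genes lie mostly to the right (median 0.36, 31 of 65 called higher), and the MYC-repressed genes (median -0.50) and the MondoA and MLX targets (Klf10 at -1.55 and Txnip at -1.44) to the left.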

How the data were processed

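Total mRNA of 6 Ba/F3 clones was sequenced from stranded poly(A) libraries on an Illumina HiSeq instrument. Per the labels and the study's methods, the authors removed ribosomal and transfer RNA reads with Bowtie2, aligned the rest to mm10 with TopHat, kept primary alignments of mapping quality 10 or more and counted reads on exons. The submitters' processing notes name SAMtools, HTSeq and DESeq2. Gene annotation and strand setting are not given in the sources used here. The deposited values are a signal listed by gene symbol, namely the authors' read counts divided by DESeq2 size factors. Nonzero values (100% in each library) were multiples of the value of 1 read to within 0.01 reads, which gave back the reads. For WT clone 36, whose step was close to 1, this is less certain.

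Clones were grouped by their labels. No pairing exists. Counts of clones of a group differed by more than counting error (a chi-square of 18.68 or more per degree of freedom), so each counts as 1 sample, and for genes far above the floor the spread between clones, not depth, limits the precision. R98S was compared with WT by limma (version 3.58.1, R 4.3.3) with an intensity trend on log2(normalized count + 1), for genes with a mean of at least 10, two-sided, with Benjamini-Hochberg adjustment over all 11550 genes and a threshold of 0.1. This scale understates changes of weakly expressed genes. The fit was tested on simulated data. Alternatives were pseudocounts of 0.5 and 5, no filter or a minimum of 50, other scalings, no trend, a threshold of 0.05, each clone left out, subtraction of the regional shift (the median over the 30 nearest genes tested), and edgeR (version 4.0.16) and DESeq2 (version 1.42.0) on the recovered reads. Scaling to the upper quartile of detected genes and the exon union as gene length were added after seeing the data.

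The network factors, the gene lists around them (compiled from general knowledge) and the tests were chosen with earlier results of these data known. Named are the 10 factors, Rpl10, in each other list up to 3 called genes at either end of the fold changes, and every gene of lists of 5 or fewer, except for items that are not reported here. The other genes named were chosen after their values were seen. Gene positions and lengths are from GENCODE M21 (GRCm38), promoter sequences from RefSeq (GRCm38.p6).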

Additional observations from a re-analysis of the deposited data

How the results depend on the processing

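No paired analysis was possible because the clone numbers of the genotypes differ. Of 180 comparisons of single network factors over the alternatives, 164 kept direction and call, 8 lost a call (Mxd1 in 7 and Mxd3 in 1), 1 gained a call (Mnt) and 7 reversed, all of them in factors without a call. With the regional shift removed, Myc was at 0.021 and Mlx at -0.085. With each clone left out in turn, Mxi1 ranged from -0.32 to 0.030, Mlx from -0.019 to 0.22 and Mga from -0.36 to 0.33. The count of called factors was 2 or 3 in every alternative. Mxd1 was not called without the intensity trend (adjusted p = 0.1135), with the upper quartile of detected genes (0.1443) or at a threshold of 0.05.

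Over all genes, 1722 (14.9%) were called at a threshold of 0.05. With each clone left out, 1322 (11.45%, without WT clone 28) to 3213 (27.8%, without R98S clone 13) were called. Under the same clones left out, counts ranged from 0 to 3 for the 14 corepressors and cofactors, from 0 to 4 for the 13 genes of MYC turnover, from 19 to 39 for the 65 MYC-activated genes, and from 1 to 4 for the 6 MYC-repressed genes. The corepressors gave 0 calls without a filter, 0 without the trend, 0 at a threshold of 0.05 and 5 with the same upper quartile. Genes of MYC turnover gave 0 without a filter, 0 at a threshold of 0.05, 2 with the same total, 3 with the same upper quartile, 2 with that of detected genes, 5 with DESeq2 and 2 with the regional shift removed. The MYC-repressed genes gave 1 without the trend, 1 with the regional shift removed and 1 at a threshold of 0.05. The share called over all genes moved as well, to 8.94% without a filter and 20.55% without the trend. It was 24.03% with the same total, 24.46% with the same upper quartile and 24.89% with that of detected genes. With DESeq2 it was 26.88%, and with the regional shift removed 24.94%. A stricter threshold by construction calls fewer genes, and for the other changes the cause was not tested. Fits without a clone leave 2 clones in an arm. Depth was ample for all factors, the lowest count being 80 reads of Mxd3.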

Other observations

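Clones of the same genotype differed in which network factors they expressed most. Among the WT clones, clone 36 had the highest value for 5 of the 10 factors (Myc, Mycn, Mxd1, Mxd3 and Mxi1), and clone 29 the lowest for 6 (Myc, Mycn, Max, Mxd3, Mxi1 and Mga). Among the R98S clones, clone 13 had the highest value for 5 (Mycn, Mxd3, Mxi1, Mnt and Mga), and clones 11 and 35 had the lowest for 4 each. The 5 factors highest in WT clone 36 included both activators and repressors. Among 3 clones, 1 has to be highest for several factors, and the counts were not tested or set against all tested genes. Some ranks were close, as for Mxd3 in R98S clones 13 (107.2) and 35 (106.4).

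The spread within a genotype also differed from factor to factor. The coefficient of variation among WT clones was 5.87% for Mlx, 9.31% for Mnt, 14.0% for Myc and 60.2% for Mga. Among R98S clones it was lowest for Mxd4, at 4.33%, and highest for Mycn, at 42.5%. The ratio of the highest to the lowest clone over both genotypes was 1.32 for Mxd4, 1.48 for Myc and 4.12 for Mxd3.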
